A study of Mus musculus with 12 samples.

Results

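Interferon-stimulated genes were followed here as a set of 39 named genes among the 50508 gene models of a single-cell RNA-seq table, across 12 sorted plates. The members were chosen by name, with earlier results of these data known, so counts of members set beside all genes describe the list: ubiquitin-like modifiers, RNA-binding IFIT proteins, interferon signal factors, nucleic acid sensors, enzymes activated by double-stranded RNA, MX, GBP and IRG GTPases, membrane restriction factors and other effectors. All 39 had a row in the table, 38 had at least 1 UMI (unique molecular identifier, 1 per captured transcript molecule), and 27 passed the filter on low counts. Together they held 19912 of the 5119450 UMIs in retained wells.

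Cells came from the longitudinal muscle and myenteric plexus layer of the intestine of adult C57BL/6 mice and were sorted into 96-well plates. That layer contains enteric neurons and the enteric glia that surround them. Sorted cells were Dclk1-tdTom+ and were split by CD49b, an integrin subunit, into a CD49b+ gate labelled glial and a CD49b- gate labelled neuronal. Mice of all groups received 3 mg tamoxifen at 8 or 9 weeks of age, controls included. The labels do not name the Cre driver. The 4 groups, of 3 plates each, were CD49b+ irradiated, CD49b+ homeostasis, CD49b- irradiated and CD49b- homeostasis. Irradiated mice received 10.5 Gy 7 days after tamoxifen and tissue was taken 3 days later. Homeostasis mice were not irradiated and tissue was taken 10 days after tamoxifen. Each plate held cells of a pool of 2 mice, 6 mice per treatment, and each pool supplied 1 CD49b+ and 1 CD49b- plate, which share a replicate number.

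Type I interferons bind the receptor made of Ifnar1 and Ifnar2, whose Janus kinases activate signal factors, Stat2 among them. Stat2 joins Irf9 in a complex that binds the interferon-stimulated response element in promoters, while interferon gamma signals through Ifngr1 and Ifngr2 to gamma-activated sites. The products of the induced genes block virus entry, bind foreign RNA, attack vacuoles that hold microbes and amplify the signal. In the gut the pathway is known for its part in epithelial defence and in tissue injury.

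The response element appears in promoters as GAAA, any 2 bases and GAAA again, read on either strand. RefSeq promoter windows (250 bases before to 50 bases after the start, GRCm38.p6) were found for 30 of the 39 members. At least 1 window held this core in 19 of the 30 members (63.3%), against 1079 of the 27025 genes whose windows were searched (3.99%). The gamma-activated core TTCNNNGAA, also searched on both strands, occurred in 8 of the 30 members (26.7%), against 9.55% of those 27025 genes. The stretches below surround the response element cores of the 6 members with a core that had the lowest p for irradiation on CD49b+ plates. They are shown 5′ to 3′ on the gene's strand, with the core letters in capitals. Each stretch lies before the RefSeq start, except that of Ifitm3, whose cores lie just after it.
Bst2 (chr8:71537547-71537642, minus strand): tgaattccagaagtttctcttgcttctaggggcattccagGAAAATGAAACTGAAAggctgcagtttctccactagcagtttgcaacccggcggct
Ifit3 (chr19:34583333-34583456, plus strand): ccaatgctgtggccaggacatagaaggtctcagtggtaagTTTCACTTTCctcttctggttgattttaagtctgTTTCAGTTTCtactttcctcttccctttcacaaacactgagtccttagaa
Gbp2 (chr3:142620564-142620631, plus strand): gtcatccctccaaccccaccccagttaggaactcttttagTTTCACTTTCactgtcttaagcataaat
Igtp (chr11:58199482-58199555, plus strand): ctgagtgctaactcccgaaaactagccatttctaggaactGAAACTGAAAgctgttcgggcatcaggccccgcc
Isg15 (chr4:156200835-156200936, minus strand): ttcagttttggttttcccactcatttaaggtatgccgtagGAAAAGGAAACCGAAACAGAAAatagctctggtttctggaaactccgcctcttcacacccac
Ifitm3 (chr7:141010716-141010742, minus strand): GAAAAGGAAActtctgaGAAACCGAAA
Isg15 held 3 overlapping cores, Bst2 held 2 overlapping cores, and Ifit3 and Ifitm3 held 2 separate cores each. The last 100 bases before the start of Cmpk2 and Ifi47 are shown as members whose windows held no such core.
Cmpk2 (chr12:26469115-26469214, plus strand): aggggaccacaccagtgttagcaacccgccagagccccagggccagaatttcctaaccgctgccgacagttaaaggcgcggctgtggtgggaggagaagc
Ifi47 (chr11:49076487-49076586, plus strand): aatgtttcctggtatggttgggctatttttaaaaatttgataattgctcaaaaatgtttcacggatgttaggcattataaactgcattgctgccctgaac
Among the 22 tested members with a window, the 14 with a core had a median log2 difference between irradiated and homeostasis CD49b+ plates of 0.73, and the 8 without a core one of 0.96. A match of letters is a description of the window and not a binding site.

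Of 1150 wells, 964 had at least 1000 UMIs and 500 genes and were kept. Retained UMIs per plate ranged between 150561 and 243340 on CD49b+ plates and between 541729 and 746674 on CD49b- plates, so CD49b- values rest on more molecules. The median well held 2110 to 2680 UMIs on CD49b+ plates and 5905 to 8335 UMIs on CD49b- plates. The 11 glial markers summed to between 27821 and 37223 per 1000000 UMIs on CD49b+ plates, against 496 to 808 per 1000000 on CD49b- plates. The 11 neuronal markers summed to between 138 and 1571 per 1000000 on CD49b+ plates, against 6872 to 8249 per 1000000 on CD49b- plates. The higher neuronal sums on CD49b+ plates came with 4 stray wells of irradiated replicates 1 and 2, each with at least 50 neuronal marker UMIs, against at most 7 in any other CD49b+ well. Leaving those 4 wells out left the same count of members past the threshold in CD49b+ cells. The plates used the same set of 96 well barcodes, 95 of them on every plate, as a plate layout does, and no 2 retained wells held identical counts. No label names a sequencing run. From the plate numbers in the labels, replicate 1 of both treatments was inferred to form 1 plate set and replicates 2 and 3 of each treatment a set of their own, so plate set and treatment cannot be told apart for replicates 2 and 3.

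The genes separated the gates far more than the treatments. Levels are given as CPM, the UMIs per 1000000 UMIs of the tested genes on a plate after TMM scaling, with no scaling for gene length. Fold changes, their standard errors (SE) and p-values came from edgeR's quasi-likelihood test across 8555 genes, with Benjamini-Hochberg adjustment over all of them and a threshold of 0.05. Of the 27 tested members, 23 were higher and 1 was lower on CD49b+ than on CD49b- plates. Of all genes tested, 29.6% were higher and 32.4% lower. The median log2 difference was 2.82 over the 27 members and -0.13 over all genes tested. The 12 members that were not tested had between 0 and 72 UMIs over all plates. Some tested members, such as Zbp1 with 0 UMIs on CD49b- plates, passed the filter only through the CD49b+ plates where they were high. The gate counts and median thus describe a set partly picked by that difference. Oas1a, with 31 irradiated and 30 homeostasis UMIs on CD49b- plates against 5 and 6 on CD49b+ plates, was not tested. Of the full 39, mean CPM was higher on CD49b+ plates for 33 and lower for 5. Of 26315 genes with a UMI, 12753 were higher and 13562 lower.

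**Figure D1:**
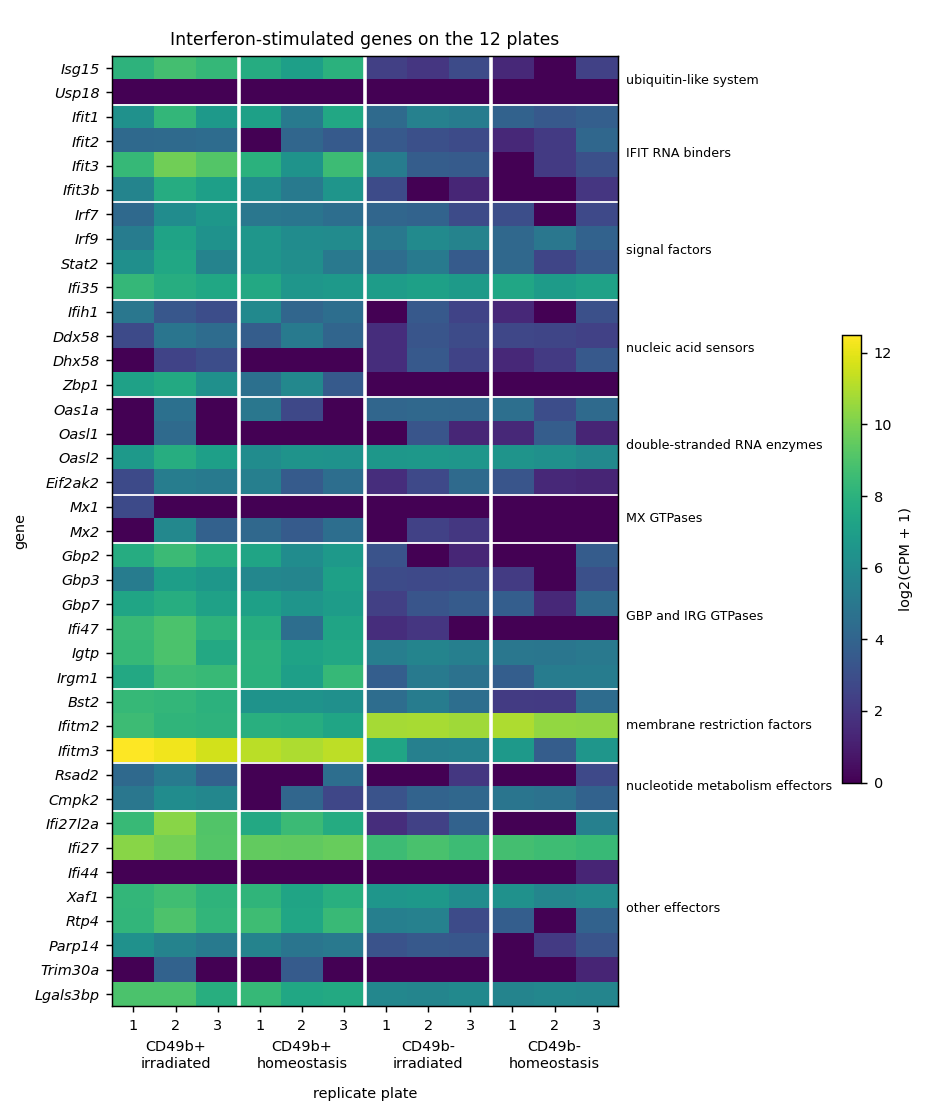
Level of each of the 39 genes on each of the 12 plates, as log2(CPM + 1) by colour, with rows grouped by role and columns by group. Ifitm2 is bright on CD49b- plates (1375 to 1947 CPM) and Ifitm3 on CD49b+ plates (1958 to 5738 CPM), and Usp18 is dark on every plate (0 UMIs).

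The summed level of the 39 genes was 10746, 12361 and 8634 per 1000000 retained UMIs on irradiated CD49b+ plates, against 6784, 5196 and 6643 on homeostasis CD49b+ plates. All 3 irradiated plates lay above all 3 homeostasis plates. On CD49b- plates the sum was 2690, 2955 and 2507 per 1000000 after irradiation, against 2864, 2105 and 2290 in homeostasis, and these ranges overlapped. A few genes supplied most of these molecules. Ifitm3 gave 38.7% of the member UMIs in irradiated and 35.6% in homeostasis CD49b+ cells. Ifitm2 gave 58.8% in irradiated and 60.4% in homeostasis CD49b- cells. Without Ifitm2, Ifitm3 and Ifi27, the 3 genes with the most UMIs, the sum was 4171, 7130 and 4663 per 1000000 on irradiated CD49b+ plates, against 3570, 2301 and 3377 on homeostasis CD49b+ plates. On CD49b- plates the other 36 genes summed to 611, 780.2 and 610.1 per 1000000 after irradiation, against 549, 433 and 605 in homeostasis.

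Bst2 was the 1 member past the threshold for irradiation. It encodes tetherin, a membrane protein that holds budding virus particles at the cell surface, and lies on chromosome 8 at 71534255 to 71537456 (GRCm38, minus strand). Its level was 327, 312 and 259 CPM on irradiated CD49b+ plates, against 83.0, 83.2 and 75.1 CPM on homeostasis CD49b+ plates. The groups were far apart, with a mean of 299 ± 36.1 CPM after irradiation and 80.4 ± 4.63 CPM in homeostasis (SD, n = 3 plates each). The log2 fold change was 1.90 (SE 0.360, edgeR adjusted p = 0.0104). Of all genes tested in this comparison, 0.713% passed in either direction. Within the plate set shared by both treatments, replicate 1, Bst2 was at 327 CPM in irradiated and 83.0 CPM in homeostasis cells. On CD49b- plates Bst2 was at 20.7, 36.3 and 21.8 CPM after irradiation, against 3.51, 3.35 and 20.1 CPM in homeostasis. All 3 irradiated plates were again above the homeostasis plates, although homeostasis replicate 3 came close, and the log2 fold change of 1.46 (SE 0.475) had an edgeR adjusted p of 1. Without homeostasis replicate 3 it was 2.84 (edgeR adjusted p = 0.0671). The difference between the 2 gates' effects on Bst2 was 0.44 (SE 0.666, edgeR adjusted p = 0.944), and -0.94 without that plate. Bst2 was 3.25 higher on the log2 scale in CD49b+ than in CD49b- cells (SE 0.299, edgeR adjusted p = 2.03e-09), and 3.96 without that plate. Its call for irradiation was lost without any 1 of the 3 CD49b+ homeostasis plates (edgeR adjusted p = 0.0532, 0.0516 and 0.0783 without replicates 1, 2 and 3), with wells thinned to 1000 UMIs (0.226) and with the plate set as a term (0.113). The fold change itself stayed between 1.66 and 2.16 under those settings.

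Over the other tested members, the irradiation effect in CD49b+ cells was positive in sign and did not pass. The 27 tested members had a median log2 fold change of 0.82 and ranged between 0.12 and 2.72, against a median of 0.09 over all genes tested. The sign was positive for all 27, and for 57.3% of all genes tested. It turned negative for 7 members with the plate set as a term and for 6 members without irradiated replicate 2. Without homeostasis replicate 2 the sign was negative for 3 members, and for 1 each without homeostasis replicate 1 or irradiated replicate 3. An unadjusted p under 0.05 was reached by 14 of the 27 members and by 10.6% of all genes. Of the full 39, mean CPM on CD49b+ plates was higher after irradiation for 34 and lower for 3, and 2 had no UMI there. For 10 of the 27 tested members every irradiated CD49b+ plate lay above every homeostasis plate, which held for 6.72% of all genes tested. These were Bst2, Ifitm3, Ifitm2, Isg15, Zbp1, Oasl2, Gbp2, Gbp7, Ifi47 and Cmpk2. Irradiated replicate 2 was the highest of the 6 CD49b+ plates for 17 of the 27 members, against 21.0% of all genes tested. Homeostasis replicate 2 was the lowest for 15 of the 27, against 15.1% of all genes. Within the shared plate set, 18 of the 27 members were higher and 9 lower in irradiated than in homeostasis CD49b+ cells, against 53.5% of all genes higher.

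**Figure D2:**
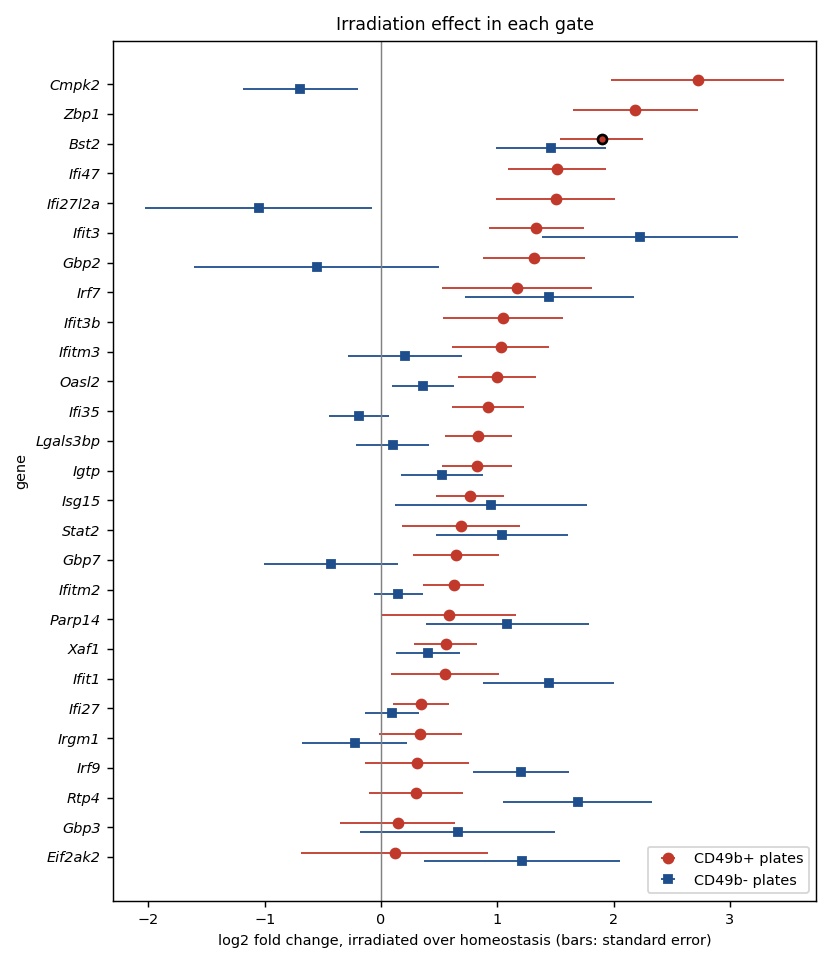
Log2 fold change of irradiated over homeostasis plates for the 27 tested genes on CD49b+ plates (circles) and for 24 of them on CD49b- plates (squares), with bars for the standard error and a black rim where the adjusted p was below 0.05. Every circle lies right of 0 (0.12 to 2.72), and only Bst2 has a rim. With the plate set as a term 7 turn negative, as do 6 without irradiated replicate 2 and 3 without homeostasis replicate 2. Zbp1, Ifi47 and Ifit3b had 3 or fewer UMIs in a CD49b- group and have no square.

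The other membrane restriction factors, Ifitm3 and Ifitm2, block virus entry by acting on membrane fusion, and their levels were opposite between the gates. Ifitm3 was at 5738, 4788 and 3225 CPM on irradiated and 2371, 1958 and 2408 CPM on homeostasis CD49b+ plates. On CD49b- plates it was at 162, 42.2 and 45.2 CPM after irradiation, against 103, 11.7 and 93.5 CPM in homeostasis. Ifitm2 was at 376, 288 and 272 CPM on irradiated and 231, 216 and 161 CPM on homeostasis CD49b+ plates. Every CD49b+ plate was far below every CD49b- plate for Ifitm2, which stood at 1795, 1820.3 and 1654 CPM on irradiated and 1947, 1430.2 and 1375 CPM on homeostasis CD49b- plates. Between the gates Ifitm3 differed by 5.41 (SE 0.362, edgeR adjusted p = 7.74e-12) and Ifitm2 by -2.73 (SE 0.171, edgeR adjusted p = 2.40e-12) on the log2 scale. The genes lie near each other on chromosome 7, and Ifitm2 shares 55.5% and Ifitm3 20.5% of their 31-base words with other gene models, so their counts carry that uncertainty. With irradiation in CD49b+ cells, Ifitm3 had a log2 fold change of 1.03 (SE 0.417, edgeR adjusted p = 0.336) and Ifitm2 one of 0.62 (SE 0.258, edgeR adjusted p = 0.358). In CD49b- cells the values were 0.20 (SE 0.491) for Ifitm3 and 0.15 (SE 0.211) for Ifitm2, both with an edgeR adjusted p of 1.

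Among the ubiquitin-like system and the IFIT RNA binders, all 4 tested genes were higher in CD49b+ cells. Isg15, a ubiquitin-like protein that is attached to other proteins, was at 267, 425 and 319.8 CPM on irradiated and 213, 133 and 252 CPM on homeostasis CD49b+ plates. It was nearly absent from CD49b- plates, at 4.14, 2.91 and 6.24 CPM after irradiation and 1.75, 0 and 4.31 CPM in homeostasis. The difference between the gates was 6.26 (SE 0.321, edgeR adjusted p = 5.42e-14). Usp18, the protease that removes Isg15 and restrains the interferon receptor, had 0 UMIs on all 12 plates, which allows up to 0.586 per 1000000 of all retained UMIs. Ifit1, which binds viral RNA by its 5′ end, was at 78.8, 303 and 109 CPM on irradiated and 136, 33.3 and 177 CPM on homeostasis CD49b+ plates, and the groups overlapped. On CD49b- plates Ifit1 was at 18.7, 43.6 and 37.4 CPM after irradiation, against 14.0, 10.0 and 12.9 CPM in homeostasis, with no overlap. Ifit3, a partner of Ifit1 and Ifit2, was at 333, 889 and 565 CPM on irradiated and 249, 83.2 and 381 CPM on homeostasis CD49b+ plates. Irradiated replicate 1 lay inside the homeostasis range. On CD49b- plates Ifit3 was at 37.3, 11.6 and 10.9 CPM after irradiation, against 0, 3.35 and 7.19 CPM in homeostasis. Ifit3b was at 48.5, 208 and 129 CPM on irradiated and 65.2, 33.3 and 91.2 CPM on homeostasis CD49b+ plates, and at no more than 6.22 CPM on any CD49b- plate. Ifit3 shares 61.8% of its 31-base words with Ifit3b, so the division of UMIs between them is uncertain. The gate differences were 2.75 for Ifit1 (SE 0.363, edgeR adjusted p = 6.75e-07), 5.43 for Ifit3 (SE 0.401, edgeR adjusted p = 4.64e-11) and 5.61 for Ifit3b (SE 0.550, edgeR adjusted p = 6.06e-09). That of Ifit3b was 6.25 without CD49b- irradiated replicate 1 and 6.63 without CD49b- homeostasis replicate 3. Ifit2, not tested, was at 18.2, 18.9 and 20.4 CPM on irradiated and 0, 16.6 and 10.7 CPM on homeostasis CD49b+ plates, from 10 UMIs in irradiated and 5 UMIs in homeostasis cells. On CD49b- plates Ifit2 was at 10.4, 7.27 and 6.24 CPM after irradiation, against 1.75, 3.35 and 17.3 CPM in homeostasis.

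**Figure D3:**
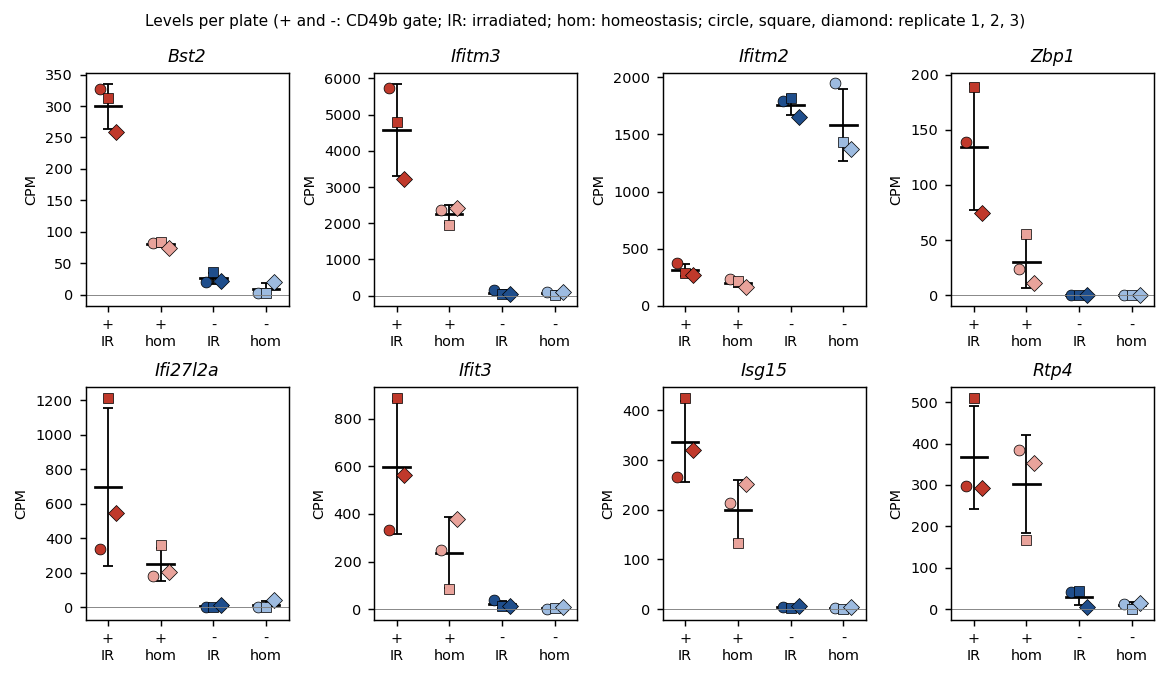
CPM of 8 genes on each plate of the 4 groups, with symbols for replicates and lines for the mean ± SD. For Bst2 the irradiated CD49b+ plates (259 to 327 CPM) are clear of homeostasis (75.1 to 83.2 CPM), Ifitm2 is high on CD49b- plates, Zbp1 is at 0 there, and for Ifi27l2a, Ifit3 and Rtp4 irradiated replicate 2 stands above the other plates.

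Of the 4 signal factors, Irf9, Stat2 and Irf7 were higher in CD49b+ cells. Irf9 and Stat2 belong to the complex that binds the response element, Irf7 drives further interferon transcription, and Ifi35 is an induced partner of Nmi. Irf9 was at 36.4, 151 and 81.6 CPM on irradiated and 94.8, 66.6 and 64.4 CPM on homeostasis CD49b+ plates, so the groups overlapped. On CD49b- plates Irf9 was at 31.1, 62.5 and 46.8 CPM after irradiation, against 17.5, 30.1 and 14.4 CPM in homeostasis, with no overlap. Stat2 was at 72.7, 175 and 47.6 CPM on irradiated and 88.9, 72.1 and 32.2 CPM on homeostasis CD49b+ plates. On CD49b- plates Stat2 was at 20.7, 34.9 and 10.9 CPM after irradiation, against 17.5, 5.02 and 10.1 CPM in homeostasis, and replicate 2 was the highest irradiated plate in both gates. Irf7 was at 18.2, 66.2 and 95.2 CPM on irradiated and 29.6, 27.7 and 21.5 CPM on homeostasis CD49b+ plates, with irradiated replicate 1 below the rest. On CD49b- plates Irf7 was at 16.6, 14.5 and 6.24 CPM after irradiation, against 7.02, 0 and 5.75 CPM in homeostasis. The gate difference was 1.41 for Irf9 (SE 0.309, edgeR adjusted p = 0.000413), 2.36 for Stat2 (SE 0.383, edgeR adjusted p = 1.24e-05) and 2.39 for Irf7 (SE 0.499, edgeR adjusted p = 0.000246). Ifi35 was at 321, 222 and 170.1 CPM on irradiated and 184, 94.3 and 102 CPM on homeostasis CD49b+ plates. On CD49b- plates it was at 120.2, 138 and 112 CPM after irradiation and 168, 113.8 and 142 CPM in homeostasis. Its gate difference of 0.39 (SE 0.203) did not pass (edgeR adjusted p = 0.0999).

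Of the nucleic acid sensors only Zbp1 had enough UMIs to be tested, and it was found in 1 gate. Zbp1 binds Z-form nucleic acids and can start necroptosis. It was at 139, 189 and 74.8 CPM on irradiated and 23.7, 55.5 and 10.7 CPM on homeostasis CD49b+ plates, with no overlap and a log2 fold change of 2.19 (SE 0.537, edgeR adjusted p = 0.0697). Without homeostasis replicate 2 it was 2.99 (edgeR adjusted p = 0.0560). All 6 CD49b- plates had 0 UMIs. Against the limit of 3 UMIs per plate, Zbp1 was at least 16.5-fold higher in CD49b+ than in CD49b- cells. Zbp1 passed the count filter only through the CD49b+ plates, so its gate test (edgeR adjusted p = 3.59e-08) is not read as support. The RNA helicases Ifih1, Ddx58 and Dhx58, which sense cytoplasmic double-stranded RNA, had 41, 41 and 23 UMIs over all plates. Ifih1 had 8 UMIs in irradiated and 17 UMIs in homeostasis CD49b+ cells, 1 of the 3 members with a lower mean after irradiation there. The others were Ddx58, with 10 UMIs in irradiated and 11 UMIs in homeostasis CD49b+ cells, and Oas1a, with 5 UMIs in irradiated and 6 UMIs in homeostasis cells.

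Among the enzymes activated by double-stranded RNA, Eif2ak2 was higher in CD49b+ cells and Oasl2 did not pass between the gates. Oasl2, a relative of the oligoadenylate synthetases, was at 103, 217 and 129 CPM on irradiated and 65.2, 83.2 and 80.4 CPM on homeostasis CD49b+ plates. On CD49b- plates Oasl2 was at 97.4, 98.9 and 92.0 CPM after irradiation, against 87.7, 76.9 and 60.4 CPM in homeostasis. It was 1 of the 2 members, with Bst2, whose irradiated plates lay above the homeostasis plates in both gates. Its log2 fold change was 0.998 in CD49b+ (SE 0.334, edgeR adjusted p = 0.220) and 0.36 in CD49b- cells (SE 0.265, edgeR adjusted p = 1), and its gate difference 0.35 (SE 0.216, edgeR adjusted p = 0.159). Eif2ak2, the kinase PKR that halts translation, was at 6.06, 37.8 and 34.0 CPM on irradiated and 41.5, 11.1 and 21.5 CPM on homeostasis CD49b+ plates. On CD49b- plates Eif2ak2 was at 2.07, 5.82 and 18.7 CPM after irradiation, against 8.77, 1.67 and 1.44 CPM in homeostasis, and the gate difference was 2.04 (SE 0.591, edgeR adjusted p = 0.00471). Oas1a, a synthetase of the activator of RNase L, was not tested. It was at 0, 23.6 and 0 CPM on irradiated and 29.6, 5.55 and 0 CPM on homeostasis CD49b+ plates. On CD49b- plates Oas1a was at 16.6, 17.4 and 17.2 CPM after irradiation, against 22.8, 6.69 and 18.7 CPM in homeostasis, and it shares 68.8% of its words with other models, nearly all with Oas1g. Oasl1 had 20 UMIs in all. The MX GTPases, which trap viral ribonucleoproteins, were close to 0, with 1 UMI of Mx1 and 28 UMIs of Mx2 in all, 5 of them in irradiated and 0 in homeostasis CD49b- cells.

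The GBP and IRG GTPases coat vacuoles and membranes that hold microbes and are classical targets of interferon gamma. All 6 were tested and all 6 were higher in CD49b+ cells. Ifi47 was at 358, 487 and 272 CPM on irradiated and 219, 22.2 and 156 CPM on homeostasis CD49b+ plates, with no overlap. Over all plates it had 272 UMIs in CD49b+ and 3 UMIs in CD49b- cells, a ratio per retained UMI of 323 (95% exact interval 109 to 1577, counting error only). Gbp2 was at 212, 359 and 218 CPM on irradiated and 154, 66.6 and 102 CPM on homeostasis CD49b+ plates, against at most 11.5 CPM on any CD49b- plate. Homeostasis replicate 2 was the low plate for both genes. Gbp7 was at 164, 222 and 143 CPM on irradiated and 136, 88.8 and 117.99 CPM on homeostasis CD49b+ plates, a small gap. On CD49b- plates it lay between 4.14 and 10.9 CPM after irradiation and between 1.67 and 18.7 CPM in homeostasis. Igtp was at 333, 492 and 184 CPM on irradiated and 255, 149.8 and 177 CPM on homeostasis CD49b+ plates, and irradiated replicate 3 lay inside the homeostasis range. On CD49b- plates Igtp was at 39.4, 49.4 and 40.5 CPM after irradiation, against 29.8, 28.4 and 31.6 CPM in homeostasis, without overlap. Irgm1, a regulator of the other IRG proteins, was at 182, 378 and 340.2 CPM on irradiated and 249, 133 and 333 CPM on homeostasis CD49b+ plates, with overlap. On CD49b- plates it lay between 12.4 and 34.9 CPM after irradiation and between 12.3 and 37.4 CPM in homeostasis. Gbp3 was at 36.4, 128 and 95.2 CPM on irradiated and 53.3, 49.9 and 134 CPM on homeostasis CD49b+ plates, and at no more than 7.19 CPM on CD49b- plates.

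Gate differences on the log2 scale were 5.49 for Gbp2 (SE 0.455), 4.05 for Gbp3 (SE 0.440), 3.85 for Gbp7 (SE 0.319), 2.82 for Igtp (SE 0.231) and 3.30 for Irgm1 (SE 0.284), with edgeR adjusted p-values between 2.73e-10 and 3.26e-08. That of Gbp2 was 6.28 without CD49b- irradiated replicate 1 and 7.37 without CD49b- homeostasis replicate 3, which held all 8 of its UMIs in that group. With irradiation in CD49b+ cells, the 6 GTPases had a median log2 fold change of 0.73. Ifi47 was at 1.51 (SE 0.418, edgeR adjusted p = 0.110) and Gbp2 at 1.31 (SE 0.440, edgeR adjusted p = 0.220), while Gbp3 was at 0.14 (SE 0.493, edgeR adjusted p = 0.962). In CD49b- cells the median of the 6 was 0.15. Igtp overlaps Irgm2 and shares 15.9% of its words with it, and Ifi47 overlaps Olfr56.

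The nucleotide enzymes were near the detection limit in homeostasis CD49b+ cells. Cmpk2, a mitochondrial nucleotide kinase, was at 30.3, 66.2 and 54.4 CPM on irradiated and 0, 16.6 and 5.36 CPM on homeostasis CD49b+ plates, from 27 UMIs in irradiated and 4 UMIs in homeostasis cells. On CD49b- plates the mean was lower after irradiation and the groups overlapped, with 8.29, 14.5 and 17.2 CPM after irradiation and 28.1, 25.1 and 14.4 CPM in homeostasis. Its log2 fold changes were 2.72 in CD49b+ (SE 0.746, edgeR adjusted p = 0.107) and -0.69 in CD49b- cells (SE 0.494, edgeR adjusted p = 1). Without CD49b+ homeostasis replicate 2 the value in CD49b+ cells was 4.03 (edgeR adjusted p = 0.101). The difference between these effects was 3.42 (SE 0.904, edgeR adjusted p = 0.181), and its gate difference was 0.17 (SE 0.538, edgeR adjusted p = 0.797). Its neighbour Rsad2, or viperin, which makes a chain-terminating nucleotide, had 12 UMIs in irradiated and 4 UMIs in homeostasis CD49b+ cells, against 2 and 4 UMIs in irradiated and homeostasis CD49b- cells.

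Among the other effectors, Ifi27l2a and Ifi27 are small hydrophobic proteins placed at mitochondrial or nuclear membranes. Ifi27l2a was at 339, 1215 and 544 CPM on irradiated and 184, 361 and 204 CPM on homeostasis CD49b+ plates. Irradiated replicate 1 lay below the highest homeostasis plate. On CD49b- plates Ifi27l2a was at 2.07, 4.36 and 14.0 CPM after irradiation, against 0, 0 and 41.7 CPM in homeostasis, and 24 of the 29 UMIs on that last plate came from 1 well. Ifi27 was spread over both gates, at 1242, 941 and 572 CPM on irradiated and 717, 694 and 762 CPM on homeostasis CD49b+ plates. On CD49b- plates Ifi27 was at 377, 484 and 376 CPM after irradiation, against 429.7, 389.8 and 341 CPM in homeostasis. Its gate difference was 1.03 (SE 0.170, edgeR adjusted p = 1.48e-05), against 5.29 for Ifi27l2a (SE 0.485, edgeR adjusted p = 1.90e-09). That of Ifi27l2a was 8.06 without CD49b- homeostasis replicate 3.

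Lgals3bp, a secreted glycoprotein that binds galectins, was at 497, 496 and 225 CPM on irradiated and 326, 172 and 193 CPM on homeostasis CD49b+ plates, with irradiated replicate 3 below homeostasis replicate 1. On CD49b- plates Lgals3bp was at 53.9, 50.9 and 59.3 CPM after irradiation and 49.1, 53.5 and 50.3 CPM in homeostasis. Rtp4, a chaperone of receptors on their way to the membrane, was at 297, 511 and 293 CPM on irradiated and 385, 166 and 354 CPM on homeostasis CD49b+ plates, with overlap. On CD49b- plates Rtp4 was at 41.4, 43.6 and 6.24 CPM after irradiation, against 12.3, 0 and 14.4 CPM in homeostasis. Xaf1, which binds the apoptosis inhibitor XIAP, was at 309, 397 and 279 CPM on irradiated and 285, 155 and 236 CPM on homeostasis CD49b+ plates, a slight overlap. On CD49b- plates Xaf1 was at 93.3, 100.3 and 65.5 CPM after irradiation, against 78.9, 51.9 and 64.7 CPM in homeostasis. Parp14, an ADP-ribosyltransferase, was at 78.8, 47.3 and 34.0 CPM on irradiated and 47.4, 27.7 and 32.2 CPM on homeostasis CD49b+ plates. It stayed at or below 10.2 CPM on every CD49b- plate. Gate differences were 2.53 for Lgals3bp (SE 0.216, edgeR adjusted p = 5.46e-10), 4.31 for Rtp4 (SE 0.359, edgeR adjusted p = 3.49e-10), 1.86 for Xaf1 (SE 0.194, edgeR adjusted p = 1.76e-08) and 2.73 for Parp14 (SE 0.451, edgeR adjusted p = 1.56e-05). That of Parp14 was 3.32 without CD49b- homeostasis replicate 3. Trim30a had 6 UMIs and Ifi44 had 1 UMI over all plates.

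In CD49b- cells no tested member passed for irradiation with edgeR at the adjusted threshold, where 0.0468% of all genes tested passed in either direction. DESeq2 called none either, and edgeR gave 5 of the 27 members (18.5%) an unadjusted p under 0.05, against 4.14% of all genes tested. These were Bst2, Ifit1, Ifit3, Irf9 and Rtp4. Their log2 fold changes were 1.46 for Bst2, 1.44 for Ifit1 (SE 0.563), 2.23 for Ifit3 (SE 0.843), 1.20 for Irf9 (SE 0.414) and 1.69 for Rtp4 (SE 0.644), each with an edgeR adjusted p of 1. Ifit3 was at 1.52 without CD49b- irradiated replicate 1 and 3.21 without CD49b- homeostasis replicate 3. For Ifit1, Ifit3, Irf9, Oasl2, Igtp and Bst2, 6 of the 27 tested members, all irradiated CD49b- plates lay above all homeostasis plates, which held for 6.45% of all genes tested. Of these 6, Oasl2 and Bst2 were also among the 10 members without overlap in CD49b+ cells. The median log2 fold change of the 27 members was 0.53, against 0.00 over all genes tested, and the sign was positive for 20 of the 27 and 50.6% of all genes. Of the full 39 genes, mean CPM on CD49b- plates was higher after irradiation for 26 and lower for 10, and 3 had no UMI there. Within the shared plate set, 20 of the 27 were higher and 6 lower after irradiation, against 49.3% of all genes higher.

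The test of the difference between the gates' irradiation effects passed for none of the 27 members with edgeR, and for 0.0117% of all genes tested. DESeq2 also called none, but only 13 members had an adjusted p there. It called 39 genes in all, where edgeR called 1 of 8555. With edgeR, 3 of the 27 members had an unadjusted p under 0.05, Cmpk2, Ifi35 and Ifi27l2a. That is 11.1% of the members, against 7.59% of all genes tested. An effect seen past the threshold in CD49b+ cells, that of Bst2, was thus not shown to differ from that in CD49b- cells.

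In single wells the members were spread widely over CD49b+ cells rather than held by a few. Every retained well, on all 12 plates, had at least 1 member UMI. With each well thinned to 1000 UMIs, 100% of the 213 irradiated and 99.6% of the 223 homeostasis CD49b+ wells kept one, against 85.7% of the 266 irradiated and 83.6% of the 262 homeostasis CD49b- wells. The median thinned CD49b+ well held 11, 14 and 7 member UMIs on the irradiated plates, against 7, 5 and 6 on the homeostasis plates. Irradiated replicate 3 thus equalled homeostasis replicate 1. The median thinned CD49b- well held 2, 3 and 2 member UMIs on irradiated plates, against 2, 1.5 and 2 on homeostasis plates. Leaving out Ifitm2, Ifitm3 and Ifi27, 98.6% of thinned irradiated and 91.0% of thinned homeostasis CD49b+ wells still had a UMI of the other 36, against 45.5% of irradiated and 40.1% of homeostasis CD49b- wells. Without thinning, the tenth of wells with the most such UMIs held 20.6% to 25.2% of them on irradiated CD49b+ plates. On homeostasis CD49b+ plates it held 23.1% to 27.7%. On CD49b- plates it held 27.6% to 37.8% after irradiation and 23.9% to 33.6% in homeostasis, so the ranges of the gates overlapped. Well depth differed between the gates, and its part in these shares was not tested.

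**Figure D4:**
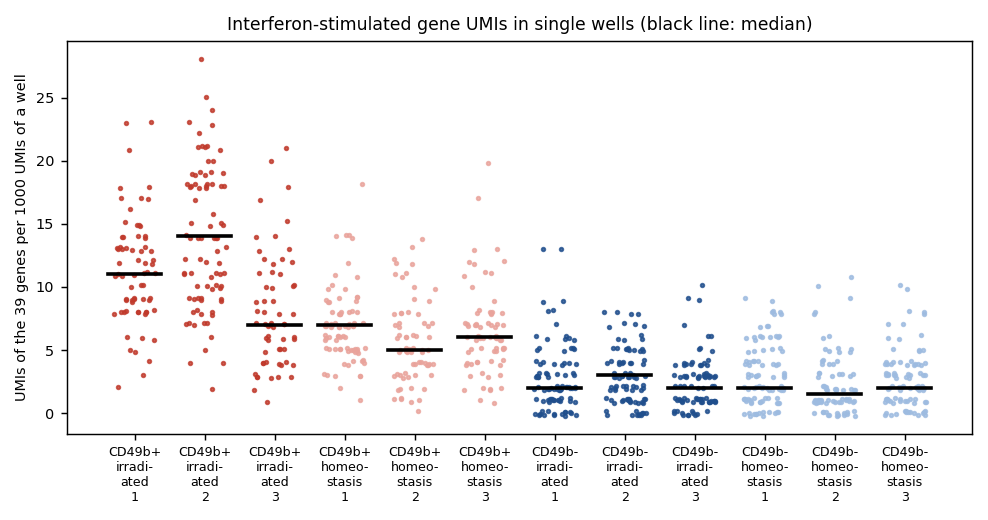
UMIs of the 39 genes in each retained well after thinning to 1000 UMIs, 1 dot per well with a small random offset, by plate. The black medians are 11, 14 and 7 on irradiated and 7, 5 and 6 on homeostasis CD49b+ plates, and 1.5 to 3 on CD49b- plates.

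Single genes differed in the share of wells that held a UMI. A UMI of Bst2 was found in 46.5% of irradiated and 16.1% of homeostasis CD49b+ wells, and in 22.1% of irradiated and 7.17% of homeostasis wells after thinning. The CD49b- gate, with deeper wells, had Bst2 in 13.5% of irradiated and 4.58% of homeostasis wells, and in 1.5% of irradiated and 0.382% of homeostasis wells after thinning. For Zbp1 the share was 25.8% of irradiated and 6.28% of homeostasis CD49b+ wells, and 11.7% of irradiated and 2.24% of homeostasis wells after thinning. It was 0 of 528 CD49b- wells, which allows a share of up to 0.568%. For Ifi27l2a it was 65.3% of irradiated and 36.8% of homeostasis CD49b+ wells, and 43.2% of irradiated and 18.4% of homeostasis wells after thinning. Ifitm3 was found in 95.8% of irradiated and 89.7% of homeostasis CD49b+ wells after thinning, against 7.52% of irradiated and 4.96% of homeostasis CD49b- wells. Ifitm2 showed the opposite, in 23.9% of irradiated and 17.0% of homeostasis CD49b+ wells after thinning, against 69.2% of irradiated and 63.4% of homeostasis CD49b- wells.

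Among the CD49b- wells with the most UMIs of the 36 genes other than Ifitm2, Ifitm3 and Ifi27, 3 wells are described, each on its own plate. They were chosen after their values were seen and are given with no test. Other plates also had a top well: 19 such UMIs on homeostasis replicate 1, 20 on homeostasis replicate 2 and 21 on irradiated replicate 3. The next wells there had 9, 10 and 18. A well of irradiated replicate 2 had 64 such UMIs of 10474, against 28 in the next well of that plate, and 96 neuronal marker UMIs, above the irradiated CD49b- median of 49.5. It held 21 of the 39 members, among them 8 UMIs of Ifit1, 7 of Igtp, 6 of Ifi35 and 5 each of Oas1a, Irgm1 and Rtp4. It had 11.1% of that plate's UMIs of the 36 genes, and 8 of the 30 Ifit1 UMIs there. A well of homeostasis replicate 3 had 76 such UMIs of 13587, against 11 in the next, but 6 neuronal and 20 glial marker UMIs, where the homeostasis CD49b- medians were 58.5 and 5. It held 24 of the 29 Ifi27l2a UMIs and 39 of the 65 Ifitm3 UMIs of its plate, 16.8% of the plate's UMIs of the 36 genes and 5 of its 14 Bst2 UMIs. A well of irradiated replicate 1 had 28 such UMIs of 6613, against 17 in the next, with 44 neuronal and 0 glial marker UMIs, and held 9 of the 18 Ifit3 UMIs of its plate. A fit without wells with more markers of the other gate left out the homeostasis replicate 3 well, among others. In that fit 0 members passed for irradiation in CD49b- cells. The part of each of the 3 wells alone in the CD49b- differences was not tested.

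Outside the 39 members, the interferon ligands were almost absent. Of 21 interferon genes, 19 had no UMI, Ifnb1 had 7 UMIs and Ifna16 had 2 UMIs over all plates. Ifnar1 was not tested, with 72 UMIs in all. It was at 6.06, 33.1 and 13.6 CPM on irradiated and 23.7, 16.6 and 32.2 CPM on homeostasis CD49b+ plates, and between 6.24 and 16.6 CPM on irradiated and 14.4 and 17.5 CPM on homeostasis CD49b- plates. Ifnar2 was at 18.2, 61.5 and 68.0 CPM on irradiated and 77.1, 33.3 and 48.3 CPM on homeostasis CD49b+ plates, and 1.45 higher than in CD49b- cells (SE 0.359, edgeR adjusted p = 0.00127). The chains of the interferon gamma receptor differed in opposite directions, with Ifngr1 higher by 3.04 in CD49b+ cells (SE 0.217, edgeR adjusted p = 2.52e-11) and Ifngr2 lower, at -1.68 (SE 0.369, edgeR adjusted p = 0.000413), and -2.57 without CD49b+ homeostasis replicate 1. Ifngr1 was at 206, 165 and 225 CPM on irradiated and 261, 233 and 289.6 CPM on homeostasis CD49b+ plates, a log2 fold change of -0.41 (SE 0.276, edgeR adjusted p = 0.644). Ifngr2 was at 12.1, 23.6 and 13.6 CPM on irradiated and 65.2, 5.55 and 10.7 CPM on homeostasis CD49b+ plates.

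In the pathway lists, Psmb8 was the 1 gene past the threshold for irradiation, and it passed in CD49b+ cells. It encodes a subunit of the immunoproteasome, which cuts peptides for antigen presentation. Psmb8 was at 830.2, 648 and 456 CPM on irradiated and 296, 305 and 225 CPM on homeostasis CD49b+ plates, with no overlap and a log2 fold change of 1.23 (SE 0.250, edgeR adjusted p = 0.0145). It lost the call without irradiated replicate 1 or 2 (edgeR adjusted p = 0.0726 and 0.0515) and without homeostasis replicate 1, 2 or 3 (0.0684, 0.0578 and 0.128), at fold changes between 0.99 and 1.31 on the log2 scale. The edgeR adjusted p was 0.115 with thinned wells, 0.124 with the plate set as a term and 0.110 in a fit of the CD49b+ plates alone. Of 36 other interferon targets listed, 18 were tested, 1 rose with irradiation in CD49b+ cells and none in CD49b- cells. Of all genes tested, 0.713% passed for irradiation in CD49b+ and 0.0468% in CD49b- cells, in either direction. At those shares nothing is read from the irradiation counts of this list or of those that follow. Between the gates, where 29.6% of all genes tested were higher and 32.4% lower, 14 of these 18 were higher and 2 lower in CD49b+ cells. These 18 had passed the same filter, so the limit given for the tested members holds for them too. Of 9 receptor and kinase genes, 5 were tested and 0 passed for irradiation, while 2 were higher and 2 lower in CD49b+ cells. Of 12 other signal factors and brakes, 9 were tested, 0 passed for irradiation and 5 were higher in CD49b+ cells. Of 15 upstream sensors and adaptors, 3 were tested, 0 passed for irradiation, while CD49b+ cells had 2 of them higher and 1 lower. For receptors and sensors these counts rest on 5 and 3 genes, and nothing is read from them against the shares over all genes.

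Markers of lymphocytes and platelets were at or near 0 on CD49b+ plates, and some macrophage and dendritic cell markers were detected. These cells also express the genes described. Of 13 lymphocyte and NK cell markers, none had a UMI on irradiated and 1 marker had 1 UMI on homeostasis CD49b+ plates. Of 15 macrophage and dendritic cell markers, 4 had UMIs on irradiated and 5 on homeostasis CD49b+ plates. Ptprc, Csf1r, Adgre1, C1qa, Itgam and Tyrobp were among those at 0 in both. Of the markers detected there, C1qb, C1qc and Flt3 had UMIs in homeostasis only. Cx3cr1 and Lyz2 had UMIs after irradiation only. Cd14 and another marker of the list, not named here, had UMIs in both. The list summed to between 6.64 and 135 per 1000000 on irradiated and between 11.2 and 594 per 1000000 on homeostasis CD49b+ plates, and the ranges overlapped with the highest plate in homeostasis. Platelet markers, 5 genes, had 4 UMIs on irradiated and 1 UMI on homeostasis CD49b+ plates. Endothelial markers, 3 of 6 detected, summed to between 16.2 and 33.2 per 1000000 on irradiated and between 21.0 and 67.2 per 1000000 on homeostasis CD49b+ plates. On CD49b- plates the macrophage and dendritic list had 6 markers with UMIs and 28.3 to 47.0 per 1000000 after irradiation, against 8 markers and 19.8 to 42.9 per 1000000 in homeostasis. The part of other cell types in the values of either gate was not tested. Fibroblast and mesothelial markers reached 288 per 1000000 on 1 irradiated and 443 per 1000000 on 1 homeostasis CD49b- plate, against medians of 20.3 and 1.64 per 1000000 in those groups. On CD49b+ plates they summed to between 78.1 and 126.2 per 1000000 after irradiation and between 115.7 and 200.9 in homeostasis. Epithelial and tuft markers summed to between 222.1 and 481.6 per 1000000 on CD49b+ and between 279.3 and 416.4 on CD49b- plates. Smooth muscle, pericyte and Cajal cell markers summed to between 13.3 and 109.0 per 1000000 on CD49b+ and between 13.7 and 105.2 on CD49b- plates.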

How the data were processed

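The authors deposited raw UMI counts per gene and well, with no normalization. Per the submitters' processing notes, the builds GRCh38 and GRCm38 and the tools featureCounts 1.5.3 and STAR 2.5.3a were named with no role. The step that collapsed molecules is not given in the sources used here. Per the labels, cells were lysed and reverse-transcribed in 96-well plates, and libraries were made with Nextera XT. Gene positions came from the GENCODE annotation of GRCm38.

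Wells with at least 1000 UMIs and 500 genes were kept (964 of 1150) and their counts summed per plate. Genes were filtered with filterByExpr and scaled by TMM, and 1 fit over 4 groups of 3 plates with edgeR 4.0.16 (R 4.3.3) gave every contrast. The fit was tested on simulated data. DESeq2 1.42.0 was an alternative. Plates of both gates with the same number share mice; within-pool correlations of residuals ranged between -0.0307 and 0.167. Replicates are pools of 2 mice. Members and lists were chosen with earlier results of these data known. Per-plate values are given for members past the threshold in any comparison and for the 5 others with the most UMIs. Thinning drew 1000 UMIs per well. Promoter sequences are from RefSeq. Intervals and floors cover counting error only. Values of 1 gene of the pathway lists are not reported here.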

Additional observations from a re-analysis of the deposited data

How the results depend on the processing

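For irradiation on CD49b+ plates, 1 member passed in the fit reported. That count was 6 with no gene filter (Bst2, Ifi27l2a, Ifi47, Ifit3, Ifitm3 and Zbp1), 2 without wells with more markers of the other gate, 0 with wells thinned to 1000 UMIs, 0 with the plate set as a term, and 0 to 5 when each plate was left out in turn; 5 passed without CD49b+ irradiated replicate 3 and 0 without any 1 of the CD49b+ homeostasis replicates. Of all genes tested, 61 of 8555 passed in the fit reported and 146 of 26315 with no gene filter. Without wells with more markers of the other gate 31 of 8572 passed, and with the plate set as a term 30 of 8555. Without CD49b+ irradiated replicate 3, 156 of 10759 passed. Without CD49b+ homeostasis replicates 1, 2 and 3, 17 of 10851, 17 of 10823 and 4 of 10837 passed. The thinned fit tested 2423 genes, and 15 passed. For irradiation on CD49b- plates and for the difference between the gates' effects, 0 passed, and 1 with no gene filter (Ifit3 and Ifi27l2a in that order). With no gene filter, 45 and 67 of 26315 genes passed in these comparisons, in the same order. Between the gates 24 of the 27 tested members passed, where 29.6% of all genes tested were higher and 32.4% lower. The alternatives gave 17 to 28. The 17 came with thinned wells, where only 17 members were tested and all of them passed. The 28 came from settings that tested more members, 38 of them with no gene filter. The range thus follows in part how many members were tested. With the mouse pool as a replicate block, 24 members passed between the gates and 0 for the difference, so the pairing changed no count.

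Signs in CD49b+ cells turned negative with the plate set as a term for Ifit1 (-0.66), Irf9 (-0.67), Stat2 (-0.20), Eif2ak2 (-2.84), Gbp3 (-0.26), Irgm1 (-0.16) and Rtp4 (-0.093), and for Eif2ak2 with library size only (-0.0058); none of these had passed. Leaving out single plates gave log2 fold changes of -0.32 to 1.03 for Ifit1, -0.37 to 0.66 for Irf9, -0.077 to 1.01 for Stat2, -0.33 to 0.69 for Eif2ak2, -0.31 to 0.78 for Gbp3 and -0.037 to 0.51 for Rtp4, negative without irradiated replicate 2 in each. Other single plates also turned signs. Gbp3 was negative without homeostasis replicate 1 (-0.066) or 2 (-0.115), and Rtp4 without homeostasis replicate 2 (-0.0011). Eif2ak2 was negative without irradiated replicate 3 (-0.047) or homeostasis replicate 2 (-0.244). Leaving out single plates gave -0.52 to 0.37 for the gate difference of Cmpk2 and -0.94 to 0.79 for the interaction of Bst2. Thinning turned the effect on Ifitm2 in CD49b- cells to -0.057. The cause was not tested. Library size only and the fit without 4 stray wells were chosen after seeing the data.

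Without Ifitm2 the summed level averaged 1118 per 1000000 UMIs on irradiated and 952 per 1000000 UMIs on homeostasis CD49b- plates. Thinned, the share of wells with a member UMI averaged 99.5% on homeostasis CD49b+ plates, and 85.7% on irradiated and 83.4% on homeostasis CD49b- plates. The 12 genes below the count filter, with 0 to 72 UMIs over all plates, have no test.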
